A study of Drosophila melanogaster with 17 samples.

Results

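RNA levels in the wild-type Drosophila ovary were set against the occupancy of RNA polymerase II (Pol2) on the same genes. Of the 17 samples of the series, the 6 wild-type RNA-seq and Pol2 ChIP-seq samples were taken by their assay and genotype labels, and their gene values were joined by gene name. The 2 tables of protein-coding genes hold 13931 genes in all. Of these, 12371 had a wild-type value in both tables, 1426 were in the Pol2 table alone and 134 in the RNA table alone.

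A gene's RNA level in a cell depends on how often Pol2 transcribes it and on how long the transcript lasts, whereas ChIP-seq of Pol2 reads the polymerase that sits on the gene at the moment of fixation. Polymerase can be engaged and elongating, or held shortly after the start site, as on Drosophila heat shock genes before induction. In the ovary, nurse cells make RNA that is loaded into the oocyte and stored for the embryo, while the surrounding follicle cells make the eggshell. A stored transcript can therefore outlast the polymerase that made it, which is known background and was not measured here.

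The study asked how the Cutoff (Cuff) protein, a factor of piRNA cluster transcription, bears on RNA and on Pol2, and only its wild-type controls were used here. The flies were labelled as wild type with no further allele, aged 2 to 4 days. RNA-seq and Pol2 ChIP-seq each had 3 biological replicates, and each replicate pooled the ovaries of about 30 females, so egg chambers of all stages present and all ovarian cell types were mixed. Total RNA was depleted of ribosomal RNA and was not selected for poly(A) tails, per the labels.

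Each table gives 1 merged wild-type value per gene and assay, a normalised read count that was never below 0. The 3 libraries behind a value were not analysed here one by one, so values carry no SD and no test between genes was possible. The RNA values summed to 89336038 and the Pol2 values to 51692649, and depth per library is unknown. In bulk tissue, fewer cells of a type and less RNA per cell cannot be told apart. A longer gene collects more reads, so levels were compared between genes per kb of gene span, the length from start to end of the gene including introns.

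Markers of the labelled tissue were present. All 8 female germline markers had RNA, from a value of 748 for gurken (grk) to 113027 for oskar (osk), whose RNAs set up the embryo's axes. All 10 follicle cell markers had RNA, from 90.9 for slow border cells (slbo), a regulator of border cell migration, to 629696 for the chorion gene Cp15. All 5 testis markers were under 10 or not listed, and 3 of 4 gut markers were under 10. The 6 muscle markers ranged from 797 for paramyosin (Prm) to 4343 for projectin (bt), so muscle RNA was in the samples. Among 3 fat body markers, the lipophorin gene Rfabg stood at 67915, Lsp2 at 1109 and Fbp1, a storage protein receptor, at 7.6. The 4 hemocyte markers ranged from 53.9 for NimC1 to 4494 for srp, and the 3 neuron markers found from 26 for brp to 584 for elav. Of 2 spermatheca markers, Send1 stood at 799 and Send2 had no RNA value. The part of muscle, fat body or other attached tissue in the results below was not tested.

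Genes for making protein led the RNA, and genes for the eggshell and for protein folding led Pol2. Per kb of gene span, the 15 highest RNA levels held 8 cytoplasmic ribosomal protein genes, eIF-5A for a translation factor, the chorion genes Cp15 and Cp19, the small heat shock gene Hsp26, 2 mitochondrial cytochrome oxidase genes and deadhead (dhd), a germline thioredoxin. The 15 highest Pol2 levels per kb held 5 chorion genes, 2 vitelline membrane genes (Vm34Ca, Vm26Aa), 6 heat shock and chaperone genes, CG6770 and CG43965. Only Cp15, Cp19 and Hsp26 were in both sets of 15. Of the 100 highest in each assay 28 genes were shared, and of the 500 highest 213 were.

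RpL41, a small ribosomal protein, had the highest RNA level per kb, 1407184, at a Pol2 level of 23384 per kb. RpLP2, of the ribosomal stalk, followed with 1090585 RNA per kb at 11157 Pol2 per kb. Cp15 had almost as much RNA per kb, 1074567, but 383246 Pol2 per kb. Ribosomal protein genes and a chorion gene thus reached similar RNA levels per kb with very different Pol2. Deadhead had 844422 RNA per kb at 14460 Pol2 per kb, and its deposited RNA value, 806423, was the highest of any gene as well. Hsp26 had 231878 RNA per kb and 205235 Pol2 per kb.

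Cp19 had the highest Pol2 level per kb, 436802, followed by Cp15 and Hsp26. Cp36 and Cp38, the major chorion genes on the X, had 118588 and 117460 Pol2 per kb. Pol2 was also high on several heat shock genes with far lower RNA levels. Hsp23 had 70608 Pol2 per kb at 1716 RNA per kb, Hsp27 had 69883 at 3128, and Hsp68 had 66446 at 664. Hsp83, the Drosophila Hsp90, had both, with 47228 Pol2 per kb and 115550 RNA per kb.

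**Figure D1:**
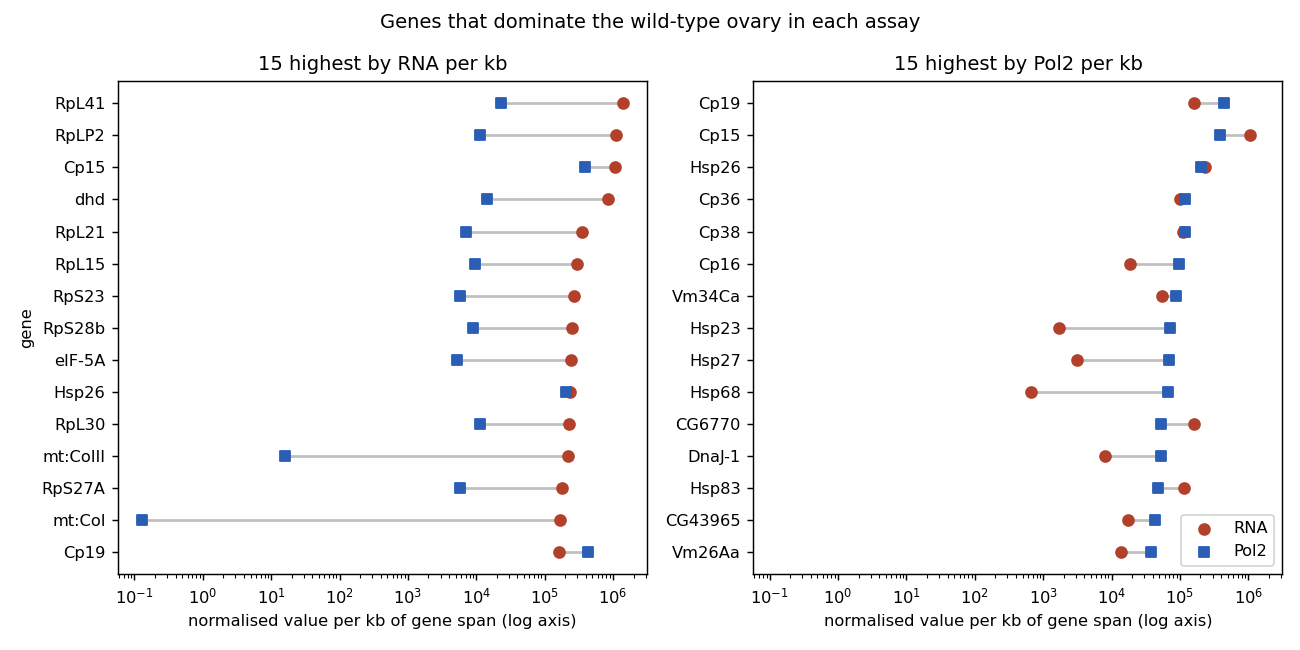
The 15 genes with the highest RNA (left) and Pol2 (right) level per kb of gene span in wild-type ovary; circles are RNA, squares Pol2, each 1 merged value on a log axis, joined by a line for each gene. Each assay has its own scale. The gap between circle and square is wide for ribosomal protein genes and narrow for the chorion genes Cp36 and Cp38. Pol2 exceeds RNA by far for Hsp23, Hsp27 and Hsp68. The Pol2 value is also the larger one for DnaJ-1, Cp19, Cp16, Cp36, Cp38, Vm34Ca, Vm26Aa and CG43965. The median gene has an RNA value 0.50 times its Pol2 value, so a larger Pol2 value alone is not an excess. Cp36, Cp38 and Vm34Ca have more RNA for their Pol2 than the median gene.

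By the deposited values, RNA was held by fewer genes than Pol2 was. The 10 genes with the largest deposited values held 6.40% of the summed RNA and 4.15% of the summed Pol2, and the 100 largest held 24.4% and 13%. It took 585 genes to reach 50% of the summed RNA and 1106 genes for Pol2. These shares depend on gene length, since longer genes give more reads. The summed Pol2 also holds reads on silent genes, which were not taken off, and reads that overlapping genes share. CG33223, with the highest Pol2 value of 505537, overlaps 6 genes that summed to 88.6% of it. Cytoplasmic ribosomal protein genes held 10.8% of the summed RNA and 1.5% of the summed Pol2. Chorion genes held 1.63% and 2.19%, and heat shock and chaperone genes held 1.43% and 2.42%.

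RNA followed Pol2 over most of its range. Pol2 on chemoreceptor genes, which act in sensory neurons, served as the ChIP background, and 102 of the 125 in the RNA table had an RNA value under 10. The 180 odorant, gustatory and ionotropic receptor genes in the Pol2 table had a median Pol2 level of 150 per kb, with the 5th percentile at 65.9 and the 95th at 368. Genes whose Pol2 per kb lay at 0.5 to 1 times that median had a median RNA level of 0.79 per kb, and 64.4% of them had an RNA value under 10. The median rose to 4.17 RNA per kb for 1 to 2 times the background, 353 for 2 to 4 times and 1595 for 4 to 8 times. Above that the rise was flatter, with 2514 RNA per kb at 8 to 16 times, 4274 at 16 to 32 times and 10953 over 32 times. Of the 296 genes over 32 times the background, 1 had an RNA value under 10. The 256 genes under 0.5 times the background broke the order, with a median of 2.08 RNA per kb and 17.6% of them at an RNA value of 1000 or more.

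**Figure D2:**
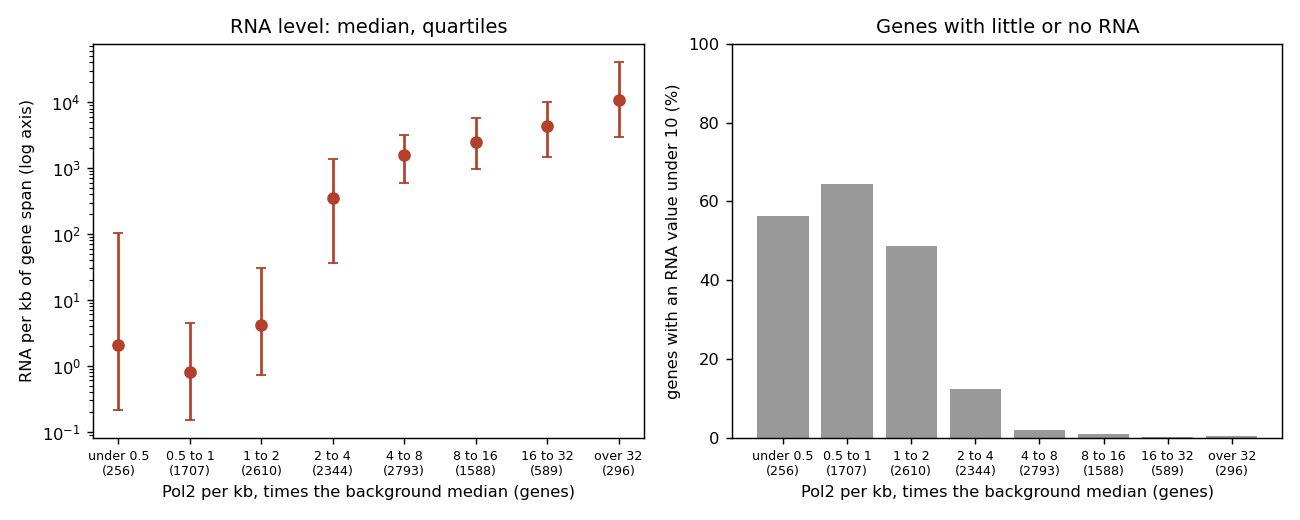
RNA by class of Pol2 level per kb of gene span, in multiples of the median of 180 chemoreceptor genes; left, median RNA per kb with quartiles as bars on a log axis, right, percentage of genes with an RNA value under 10. Median RNA climbs from 0.79 per kb at 0.5 to 1 times the background to 10953 over 32 times, and most of the step lies between 1 and 8 times.

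Across 12004 genes in both tables whose mean of the 2 values was at least 50, Spearman's rho between RNA and Pol2 was 0.69 and Pearson's r of log2(value + 1) was 0.66. Both values share gene length and the 2 pools of libraries, and genes are not independent replicates, so these are descriptions with no test. Per kb of gene span, rho was 0.78 over 11827 genes with a length. Within narrower ranges it was lower: rho was 0.68 over the 9276 of them with an RNA value of at least 10, and 0.47 over the 6999 with Pol2 per kb above the background range. The deposited Pol2 value rose with gene length (rho 0.65) more than the RNA value did (rho 0.23).

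**Figure D3:**
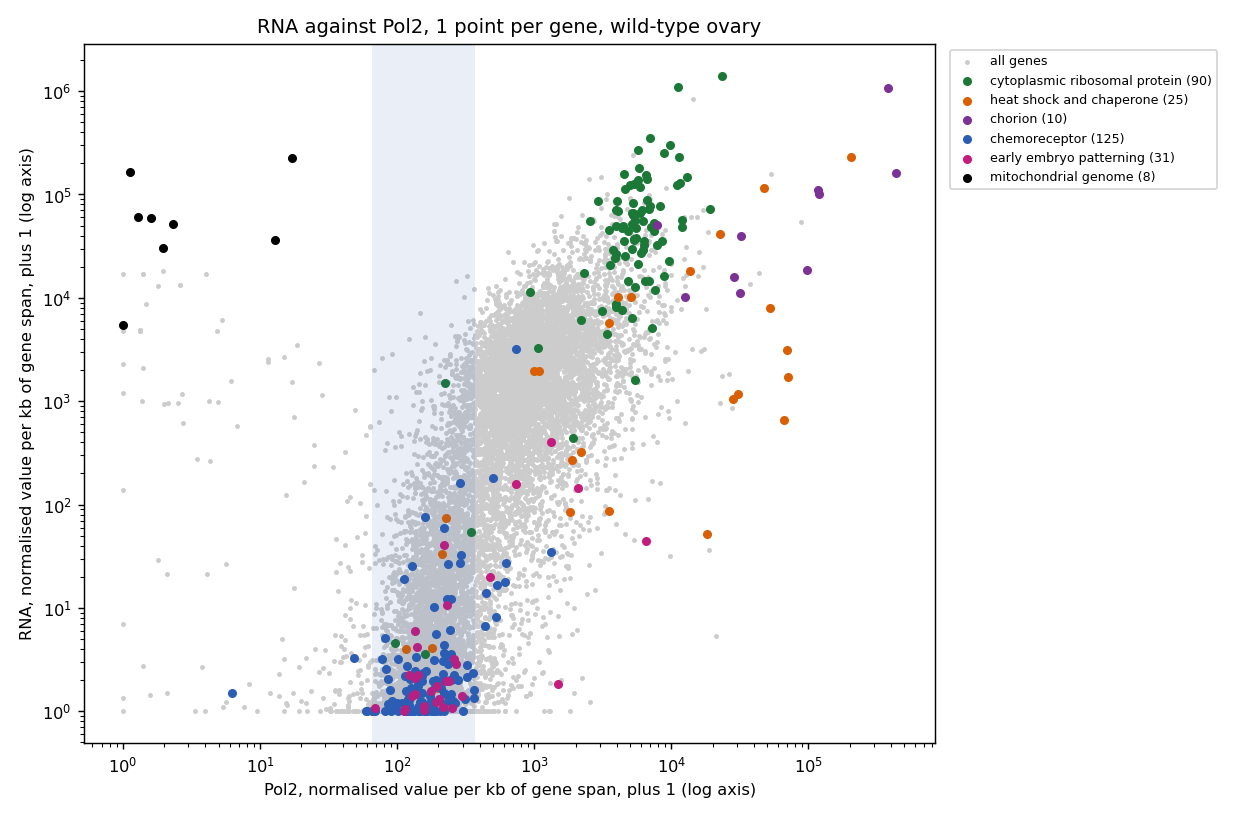
RNA against Pol2 in wild-type ovary, both per kb of gene span plus 1 on log axes, 1 point per gene, with 6 gene lists coloured and the range of the ChIP background (5th to 95th percentile of chemoreceptor genes) shaded. Ribosomal protein genes lie above the main cloud, heat shock genes to its lower right, most embryo patterning genes within the shaded range, and mitochondrial genes at the upper left. The chemoreceptor genes define the shaded range, so their place in it is given by that choice.

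Genes that departed from this relation were found by the ratio of RNA to Pol2, log2(RNA + 1) minus log2(Pol2 + 1), centred on its median over the 12004 genes. Dividing both values by the same gene span cancels in this ratio, but that does not make the ratio free of gene length. Among genes with an RNA value of at least 1000, its median was 2.77 in the shortest of 5 equal length classes and 0.49 in the longest. Each assay has its own scale, so a ratio has meaning only beside those of other genes. Where a gene was listed at 0 its ratio depends on the added 1. A gene had much RNA for its Pol2 where the centred log2 ratio was 3 or more, an 8-fold excess, and much Pol2 for its RNA at -3 or less. Much RNA was found for 1758 genes, 14.6% of the 12004, and much Pol2 for 3690 genes, 30.7%. The borders are not gaps in the distribution: barr (a condensin subunit) was called with an RNA value of 5457 and a Pol2 value of 1365, and ldbr (RNA debranching) was not, with 3500 and 876. Most genes with much Pol2 were silent genes at the ChIP background: 2566 of the 3690 had an RNA value under 10, and Pol2 per kb was within the background range in 83.9% of those with a length. Genes with an RNA value of at least 1000 had a median centred log2 ratio of 2.07, and genes with Pol2 above the background range one of 1.67, so list medians below are to be read against these as well as against 0. Of the 6475 genes with an RNA value of at least 1000, 1728 had much RNA and 20 much Pol2. Counts in lists of expressed genes are to be read against these too.

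Genes of protein synthesis and genes that provision the egg had much RNA. Of 90 cytoplasmic ribosomal protein genes 68 had much RNA, with a median centred log2 ratio of 3.95, beside 14.6% of all genes. RpLP2 had a ratio of 7.61, RpL41 one of 6.91 and RpS23 one of 6.56. The exception with much Pol2 was RpL22-like, a paralog known from the testis, with an RNA value of 3.3 and Pol2 at 1.06 times the background. Of 22 translation factors 19 had much RNA, 86.4% beside 14.6% of all genes, with eEF1delta at 6.68, eIF-5A at 6.53 and eEF2 (Ef2b) at 5.56. None had much Pol2, beside 30.7% of all genes, but all 22 had an RNA value of at least 17165. The elongation factor gene Ef1alpha48D had a ratio of 4.57, from an RNA value of 628545 and a Pol2 value of 53190.

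All 4 yolk genes had much RNA, beside 14.6% of all genes, with ratios within a narrow range of 5.10 to 5.21. Yolk proteins Yp1, Yp2 and Yp3, which follicle cells as well as the fat body make, had RNA values of 156099, 153242 and 63450, and yolkless (yl), the oocyte's yolk receptor, had 196346. The 3 yolk proteins and their receptor thus had nearly the same RNA for their Pol2.

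Maternal regulators were high too. Of 16 maternal cell cycle genes 10 had much RNA, 62.5% beside 14.6% of all genes, with a median of 3.92. None had much Pol2, beside 30.7% of all genes, but all 16 had an RNA value of at least 2416. Of the 6475 genes with an RNA value of at least 1000, only 20 had much Pol2. Cyclin A (CycA) had a ratio of 6.01 and cyclin B (CycB) one of 4.65, while string (stg), the Cdc25 phosphatase, had 0.29 at Pol2 38.1 times the background. Of 21 genes of axis RNA localization and its translational control, 11 had much RNA, 52.4% beside the same 14.6%. None of these 21 had much Pol2, beside 30.7% of all genes, but all had an RNA value of at least 748. The translational repressor me31B had a ratio of 6.80, from an RNA value of 395358 and a Pol2 value of 7088. Oskar had 4.63 and nanos (nos) 3.82, whereas gurken had -1.61, from an RNA value of 748 and a Pol2 value of 4577. Pol2 per kb on gurken was 12.1 times the background, but gurken overlaps Akap200, so these reads may be shared.

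The piRNA pathway silences transposons in the germline, and Cuff belongs to it. Of its 31 genes 13 had much RNA, 41.9% beside 14.6% of all genes, with a median of 2.73. None had much Pol2, beside 30.7% of all genes, but all 31 had an RNA value of at least 151. Mitochondrial ribosomal protein genes were alike in the share with much RNA and in the median, at 43.8% and 2.72. Tejas (tej), a Tudor protein of nuage, had the highest ratio of the piRNA pathway genes, 5.20, at Pol2 2.17 times the background. The lowest was fs(1)Yb at -2.25, which acts in somatic cells. The cuff gene itself had an RNA value of 951 and a Pol2 value of 829, a ratio of 1.2. Of 41 proteasome genes 21 had much RNA, 51.2% beside 14.6% of all genes, among them Prosalpha5 at 5.60, and 7 had much Pol2, 17.1% beside 30.7% of all genes. The lowest was Prosbeta2R2, a testis paralog of a core subunit, with an RNA value of 0.6 at Pol2 4.22 times the background and a ratio of -8.46.

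**Figure D4:**
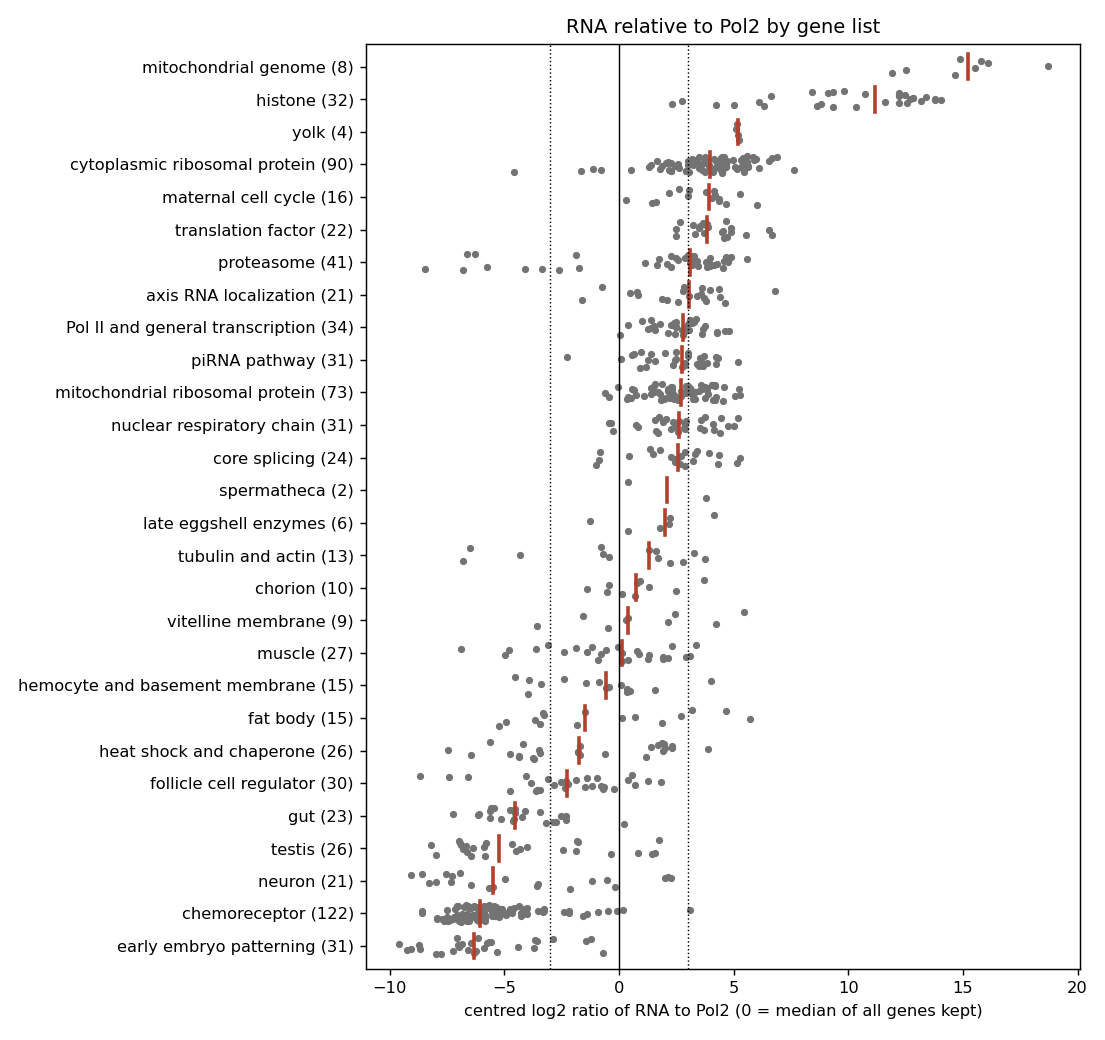
Centred log2 ratio of RNA to Pol2 for each member of the 28 gene lists (grey points, vertical offset for legibility only), with the list median as a red bar; numbers in brackets are members with a ratio, 0 is the median of all 12004 genes and dotted lines mark the 8-fold borders. Yolk, ribosomal protein, translation and maternal lists lie right of 0, and heat shock, follicle regulator, gut, testis, neuron, chemoreceptor and embryo patterning lists have medians left of it.

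Among single genes with at least background Pol2 and a larger value of at least 1000, the 15 highest ratios ran from 6.16 to 7.61. Beside RpLP2, RpL41, me31B and other genes named above, they held dhd at 6.87, the Hsp90 co-chaperone p23 (CG16817) at 6.59, gustavus (gus), a partner of the germline helicase Vasa, at 6.46, and Uch-L5, a deubiquitinase of the proteasome, at 6.16. CG40472, CG14483, CG9917 and CG14545, genes with no name, were also among them. Deadhead had an RNA value 58.4 times its Pol2 value, where the median gene had a ratio of 0.50.

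In all, 565 genes, among them CG14483, CG40472 and tej named above, had an RNA value of at least 1000 although their Pol2 per kb lay within the background range. They included Cyp4g1, known from oenocytes, with an RNA value of 27676 at 2.43 times the background. Rfabg, known from the fat body, had 67915 at 1.07 times the background and a ratio of 5.70. The eggshell gene fs(1)M3 had 33499 at 2.43 times, and pho, a Polycomb recruiter on chromosome 4, had 40525 at 2.06 times. These 4 are examples, and no tissue list was counted among the 565. The fat body list itself went both ways. Of its 15 members 3 had much RNA, 20% beside 14.6% of all genes, and 6 much Pol2, 40% beside 30.7%.

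The very highest ratios came from genes that ChIP reads hardly reached. The 15 highest ratios of all, from 12.6 to 18.7, were 6 genes of the mitochondrial genome and 9 copies of the histone repeat. The mitochondrial genome is transcribed by its own polymerase, and mt:CoI had an RNA value of 255455 and a Pol2 value of 0.2. Histone genes lie in near-identical repeats, so single copies are uncertain: 20 His2A copies had RNA values from 6471 to 8475, and the 7 of them in the Pol2 table had Pol2 from 0 to 1.5. Histone genes outside the repeat were not so low in Pol2, with His3.3B at a ratio of 5.0 and His2Av at 2.33.

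Together, 42 genes had an RNA value of at least 1000 and Pol2 per kb under the 5th percentile of the background. They were the 8 mitochondrial genes, 18 histone copies and 16 others, several of them with a near-identical copy elsewhere, which makes both of their values uncertain. Maf1, a repressor of RNA polymerase III, had 21745 RNA at 0.11 times the background. HIP, which has a close copy in HIP-R, had 6515 RNA at 0.09 times, and CG18858 and CG31683 had 5311 and 5261 RNA at 0.07 and 0.17 times. The gene fdy, annotated on the Y chromosome and known as a copy of vig2, had an RNA value of 2753 in this female tissue, at a Pol2 value of 8.9. Its parent vig2 had 116760 RNA and 8354 Pol2.

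Genes with much Pol2 fell into a larger set of silent genes at the ChIP background and a smaller set above it. By the ratio alone, the lowest genes were the neuropeptide gene amn at -11.38, which overlaps Hers, beat-IIa at -11.38 and CG34114 (side-VI) at -11.28. Beat-IIa and side-VI, genes of neuronal cell surface proteins, span 46.1 and 77.8 kb, and their Pol2 per kb was 0.77 and 0.56 times the background. Of 122 chemoreceptor genes 112 had much Pol2, as had 14 of 21 neuron genes, 17 of 26 testis genes and 17 of 23 gut genes, beside 30.7% of all genes. List medians of Pol2 per kb were 0.90 times the background for neuron, 1.09 for testis and 1.27 for gut genes. The chemoreceptor genes define that background. An RNA value under 10 was found for 102 of 125 chemoreceptor, 17 of 27 testis and 19 of 26 gut genes and 5 of 21 neuron genes. In the neuron list RNA ran from 0.6 for the opsin gene ninaE to 27784 for unc-13, of synaptic vesicle priming, with a median of 29.8.

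Pol2 per kb was at least 4 times the background in 259 genes with much Pol2. Of these 69 had an RNA value under 10 and 13 one of at least 1000. Overlapping genes share ChIP reads, which these tables show directly: 139 of 3514 overlapping pairs had the same Pol2 value, such as stnA and stnB. Among genes with no overlap and little RNA, the lowest ratio was that of CG4461, which lies among the small heat shock genes between Hsp22 and Hsp26, with an RNA value of 3.8 and a Pol2 value of 18277, 141 times the background. The zinc finger genes escargot (esg) and odd skipped (odd) were listed at 0 and 2.1 RNA, at Pol2 8.5 and about 10 times the background. Also in this set were Gpb5 (a glycoprotein hormone subunit), commissureless (comm), knickkopf (knk) and four-jointed (fj), with ratios from -7.08 to -5.95.

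Many heat shock genes carried polymerase and had little RNA for their Pol2. The RNA itself was not low, with a list median of 2373 beside 1559 over all genes kept. Of 26 heat shock and chaperone genes 11 had much Pol2, 42.3% beside 30.7% of all genes, and 1 (Hsp60) had much RNA, beside 14.6%. Their median ratio was -1.75, and unlike the silent lists their median Pol2 per kb was 25.3 times the background. Hsp60B, Hsp60C and Hsc70-1, among the 11, had a mean of both values under 500. With the ChIP background taken off, their ratios were -5.81, 3.23 and -3.57. Hsp67Bc had an RNA value of 50.4 and a Pol2 value of 18016, a ratio of -7.45. Hsp68 had 1482 and 148242, a ratio of -5.64, Hsp23 had 1517 and 62417, a ratio of -4.36, and Hsp27 had 5104 and 114048, a ratio of -3.48. Hsp22 and Hsp67Bb, which overlap, had 2372 and 2374 RNA and 62529 and 63058 Pol2, so they cannot be told apart.

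Heat shock cognates, which are made without heat shock, had ratios on both sides of 0. Hsc70-4, the main cytosolic Hsp70 cognate, had 164652 RNA and 88406 Pol2, a ratio of 1.90. Hsc70-3, of the endoplasmic reticulum, had 1.41 and Hsp83 2.29, whereas Hsc70-1 had -4.74 and Hsc70-2 -1.69, from RNA values of 11.4 and 85.8. Inducible and cognate genes thus overlapped in their ratios, but Hsc70-1 and Hsc70-2 had a mean of both values under 500. With the ChIP background taken off, the ratios of Hsc70-1 and Hsc70-2 were -3.57 and -1.36. Hsp26, from the same small heat shock cluster as Hsp23 and Hsp27, had 234196 RNA and a ratio of 1.18. The heat-inducible Hsp70 copies are near-identical and uncertain: their ratios ran from -3.43 for Hsp70Bc to 1.97 for Hsp70Aa. The DnaJ partner gene DnaJ-1 had -1.72 at Pol2 349 times the background, and starvin (stv), a BAG co-chaperone, had -5.49 from an RNA value of 303 and a Pol2 value of 27480. Where on these genes the polymerase sat cannot be read from 1 value per gene.

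Regulators of follicle cells had a low median ratio, but their share with much Pol2 was near that of all genes. None of 30 had much RNA, beside 14.6% of all genes, and 10 had much Pol2, 33.3% beside 30.7% of all genes and 34.4% of the longest length class, with a median ratio of -2.27 and a median Pol2 per kb of 2.80 times the background. Eip75B, an ecdysone-induced nuclear receptor, had an RNA value of 3111 and a Pol2 value of 74057, a ratio of -3.57. Broad (br) had -3.61, the Egf receptor gene Egfr -2.84 and slbo -4.75, while caudal (cad) had 1.84. These genes are often long, and length bears on the ratio: in the longest of 5 equal length classes, over 7.47 kb, 4.44% had much RNA against 14.8% to 18.6% in the other 4. Among genes with an RNA value of at least 1000, the median ratio was 0.49 in that class and 2.77 in the shortest. The share of length in the low ratios of this list was not tested.

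The other genes with much Pol2, at least 4 times the background and an RNA value of at least 1000 included taranis (tara) at -4.71, u-shaped (ush), a GATA cofactor, at -4.26, echinus (ec) at -3.86, CG5010 at -3.36 and the Polycomb gene Psc at -3.06. Tara had 1138 RNA and 59838 Pol2 on a gene of 34.7 kb. With the 5 heat shock genes above, Eip75B, Fhos and CG33223, these make up the 13. Set against genes of like Pol2 instead, 7 of the 13 no longer passed the 8-fold border: Hsp22 (residual log2 ratio -2.50), Hsp67Bb (-2.49), Hsp27 (-1.39), ush (-2.90), Eip75B (-2.10), Fhos (-2.23) and CG33223, which turned to 0.24.

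Of 31 early embryo patterning genes, most of which act after fertilization, 27 had much Pol2, 87.1% beside 30.7% of all genes, and 18 had an RNA value under 10. Their median Pol2 per kb was 1.32 times the background, so most were at it. Hairy (h), a pair-rule repressor, stood apart with an RNA value of 153 and a Pol2 value of 22918, 43.7 times the background. Hunchback (hb), whose RNA is loaded maternally, had 2740 RNA and a ratio of -0.71.

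Chorion genes had high levels in both assays, and most eggshell genes passed neither border, as did 6556 of all 12004 genes. Much RNA was found for 1 of 10 chorion and 2 of 9 vitelline membrane genes, 10% and 22.2% beside 14.6% of all genes. Much Pol2 was found for 0 and 1 of them, 0% and 11.1% beside 30.7% of all genes. Pol2 on the 10 chorion genes had a median of 435 times the background per kb, and their ratios ran from -1.40 for Cp16 to 3.70 for dec-1, with a median of 0.74. The 9 vitelline membrane genes spanned -3.57 to 5.43. Within that list, Vm26Ab had an RNA value of 610 and a Pol2 value of 14490, whereas Femcoat had 54774 and 2538. Vm34Ca, Vm26Aa and Vm26Ac had ratios of 0.29, -0.47 and 4.23, so genes of 1 eggshell layer differed widely in RNA for their Pol2.

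Pol2 was also high on genes next to the chorion clusters. The 2 clusters, on the X and on 3L, are known to be amplified in follicle cells, so that their DNA is present in many copies with a gradient into the flanks. On 3L, Pol2 per kb was 64.5 times the background on CG6511, whose edge is nearest to Cp18, and 288 times on CG43965, which overlaps CG6511, so both may share reads. It was 32.4 times on CG32022 and 36.4 times on SrpRbeta, then 43.7 times on hairy, and 0.96 to 1.63 times on Arr2, Pex7 and CG13305 beyond it. On the other side it fell step by step, from 26.4 times on Prm, next to Cp16, to 10.4 on CG13306, 7.22 on Fhos, 6.12 on CG6576, 3.97 on CG5804 and 1.67 on CG13310. CG6576 and CG5804 overlap Fhos, which spans 45.1 kb, so the steps on these genes may share reads.

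RNA did not follow that order. Prm had 797 RNA and a ratio of -4.95, CG13306 had 0.6 RNA and a ratio of -8.16, and CG5804 had 10.2 RNA. Hairy, Prm and Fhos, described above for their Pol2 or RNA, thus lie in these flanks. On the X the flanks were less ordered: org-1 and CG32713, with RNA values of 17.6 and 71.8, were at 1.80 and 1.81 times the background although genes on both sides of them were higher. CG33223, whose span holds the X chorion genes, had the highest deposited Pol2 value, 505537, and the 6 genes overlapping it summed to 88.6% of that. Input libraries were not analysed here, and whether DNA copy number bears on Pol2 in these flanks was not tested.

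**Figure D5:**
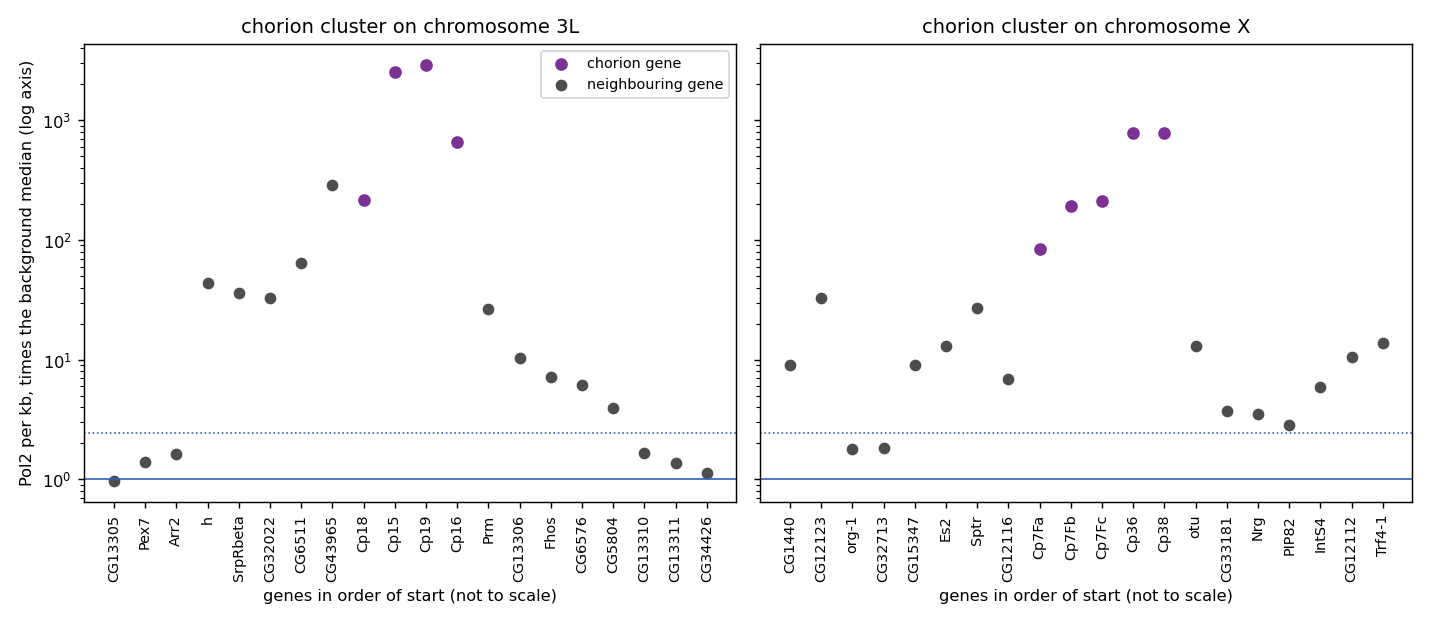
Pol2 per kb of gene span in multiples of the background median (log axis) for the chorion genes of the 3L and X clusters and up to 8 genes on each side, in order of gene start and not to scale; the solid line is the background median and the dotted line its 95th percentile, and CG33223, which spans the X cluster, is not drawn. On the right of the 3L cluster Pol2 falls from 26.4 times on Prm to 1.67 times on CG13310.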

How the data were processed

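The deposited values are a normalised signal with 1 wild-type value per gene and assay. The file headers name DESeq as the tool the authors used, without saying that a value is a mean of size-factor-scaled counts, which is assumed here. Per the submitters' processing notes, cutadapt 1.2.1, TopHat2 2.0.8, Bowtie2 2.0.0, SAMtools 0.0.19 and DESeq 1.16.0 were used by the authors with build dm3. How reads were assigned (exons or whole genes, with strand or without) was not stated there.

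The wild-type columns were joined by gene name, and gene spans, overlaps and chromosomes came from a RefSeq gene table of assembly Release 6, which gave a span for 13720 of 13931 names. No exon lengths were used here, so RNA per kb is also over gene span, introns included, which lowers it for genes with long introns if exons alone were counted. A pseudocount of 1, a filter on a mean of at least 50 for both values, and an 8-fold call were used. Alternatives changed the pseudocount, the filter, the length, the fold, the ChIP background and the overlapping genes. With merged values no test was run. The steps were tested on simulated data and run in Python 3.11.15 with pandas 2.3.3.

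Named genes are the 15 highest per kb in each assay, the 15 highest and lowest ratios among genes with a value of at least 1000, and up to 4 leading and the extreme members of each of 28 lists. Rules on Pol2 relative to the background, the 565 and 13 genes, and the neighbours of the chorion clusters were chosen after values were seen. Members and lists were chosen with earlier results of these data known. List entries CG1499, don and dhod matched unrelated genes and were dropped, as was Cg6, which matched none.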

Additional observations from a re-analysis of the deposited data

How the results depend on the processing

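No paired analysis was possible because the tables hold 1 merged wild-type value per gene, and for the same reason no library could be left out and depth per library is unknown. Exon-based lengths and promoter motif shares were planned and not run. Without a length correction, 8 of the 15 highest RNA genes and 9 of the 15 highest Pol2 genes stayed in place. Pearson's r moved from 0.66 to 0.643 and 0.665 with pseudocounts of 0.1 and 10, 0.680 with no filter, 0.248 with a mean of at least 500, 0.722 per kb, 0.753 with the ChIP background taken off and 0.695 without genes under that background. Spearman's rho moved from 0.69 to 0.707 with no filter, 0.345 with a mean of at least 500, 0.779 per kb, 0.775 with background taken off and 0.710 without overlapping genes. Genes with much RNA numbered 353 with a mean of at least 500, 1101 with background taken off, 3393 at 4-fold and 603 at 16-fold. Genes with much Pol2 numbered 1743 with a mean of at least 500, 2402 with background taken off, 2214 without overlapping genes and 2161 as residuals from genes of like Pol2. With the stricter filter and with background taken off, the median that centres the ratio rose by 1.43 and 1.44 on the log2 scale; relative to it, of 1758 genes with much RNA 353 and 590 were still called, and of 3690 with much Pol2 1193 and 2071. As residuals from genes of like Pol2, 1305 genes had much RNA, but these included 628 (35.7%) of the 1758, and 1783 (48.3%) of the 3690 still had much Pol2; Hsp22, Hsp27 and Eip75B lost that call. With the stricter filter and with background taken off, the chorion list median became -0.69 and -0.69, and that of the vitelline membrane list -1.05 and -1.01. As residuals from genes of like Pol2, these list medians were 2.51 and 0.55. The neuron list median turned from -5.49 to 2.13 with background taken off, which takes off more than its median gene's Pol2. Leaving out overlapping genes and genes under the ChIP background was chosen after seeing the data.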

Other observations

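Genes of the small chromosome 4, which is largely heterochromatic, had little Pol2 for their RNA. Of its 75 genes, 1 had an RNA value under 10, against 19.5% to 26.4% of genes on the other arms. Its 50 genes with an RNA value of at least 1000 had a median centred log2 ratio of 3.35, against 1.89 to 2.27 on the other arms. They had a median of 448 Pol2 per kb against 876 to 921, and of 2769 RNA per kb against 1727 to 2149. These genes are long, with a median span of 10.1 kb, and long genes elsewhere had low ratios. Within the longest of 5 equal length classes, genes with an RNA value of at least 1000 were compared again. The 33 such genes of chromosome 4 had a median ratio of 2.89, and 15 of them, 45.5%, had much RNA. Their median Pol2 of 349 per kb lay within the background range, whose 95th percentile was 368, against 583 to 666 on the other arms. For such genes on the other arms that median was 0.37 to 0.68, with 4.07% to 9.16% of them at much RNA. The ranges of single genes overlapped, from -0.54 to 5.70 on chromosome 4 and from -4.71 to 7.56 elsewhere.

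Other housekeeping lists lay close to the median of genes with an RNA value of at least 1000, which was 2.07. Mitochondrial ribosomal protein genes had a median of 2.72, with 32 of 73 (43.8%) at much RNA. Genes of the nuclear respiratory chain had 2.62, with 11 of 31 (35.5%), and core splicing genes 2.59, with 8 of 24 (33.3%). Genes of Pol2 and general transcription had 2.77, with 13 of 34 (38.2%). These shares stand beside 14.6% of all genes, and beside 1728 of the 6475 genes with an RNA value of at least 1000. None of these lists had a member with much Pol2, beside 30.7% of all genes, but only 20 of those 6475 genes had. The largest Pol2 subunit gene, RpII215, was the lowest of its list at 0.06, and Rpb10, a small subunit, was the highest at 4.78.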
